A study of Mus musculus with 16 samples.

Results

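Hematopoietic stem cells (HSCs) from mouse bone marrow with an intact Selp gene were profiled by bulk RNA-seq after exposure in culture to PSGL-1, a ligand of P-selectin, and after culture with vehicle. The question was which transcripts differ between stem cells exposed to this ligand and stem cells that were not. The PSGL-1 group held 2 libraries and the vehicle group 3, of 16 libraries in the series. Genes with at least 10 counts in each of these 5 libraries were used, which kept 7814 of the 25239 genes counted.

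Both groups carried the SelpWT genotype, came from animals aged 4 to 6 months and shared the same medium. That medium was StemSpan with antibiotics, FCS at 10%, and the cytokines SCF (300 ng/mL), IL-11 (20 ng/mL) and Flt-3 ligand (1 ng/mL). The treated cells received PSGL-1 at 125 ng/mL for 24 hours. SelpKO cells, in which Selp is knocked out, were cultured in the same medium with PSGL-1 at the same dose (3 libraries) or with vehicle (3 libraries). Freshly sorted cells gave 3 SelpWT and 2 SelpKO libraries. The composition of the vehicle, the length of the vehicle culture, the form of PSGL-1, the mouse strain, the design of the knockout allele and the sort gate are not stated in the labels. The labels do not say whether libraries of a group came from separate mice or cultures, so a p-value here refers to the spread among these libraries only, and that spread may be technical.

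P-selectin is an adhesion receptor stored in platelet and endothelial granules and shown on the surface after activation. Its main partner, PSGL-1 (encoded by Selplg), is a mucin-like glycoprotein on leukocytes and blood progenitors that binds only when it is sulfated on tyrosines and carries sialylated, fucosylated core 2 sugars. In leukocytes, engaged PSGL-1 signals through Src family kinases and mitogen-activated protein kinases and turns on integrins. Selp is known as a gene whose transcript is higher in HSCs from old mice. Here the ligand was added to cultured stem cells, and the transcripts of these cells were read.

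The 5 libraries had 13701702 to 19150890 counts each, and 3 counts corresponded to 0.157 to 0.219 CPM (counts scaled to the library total and to TMM factors). PSGL-1 replicate 1 stood apart. It had 9035 genes with at least 1 count, whereas PSGL-1 replicate 2 had 12711 and the vehicle libraries had 11822, 11101 and 12942. The 3 vehicle libraries each had at least 10 counts for 9770 genes, and of these 1644 (16.8%) were at 0 in PSGL-1 replicate 1 and 50 (0.512%) in PSGL-1 replicate 2. The same measure, taken for each vehicle library against the other two, gave 264, 723 and 52 genes (2.60%, 6.75% and 0.525%). The genes at 0 in PSGL-1 replicate 1 were mostly of low or middle level: 40.9% of the genes at 5 to 20 CPM in vehicle were at 0 there, and 1.16% of those over 100 CPM. Results below are given with both treated libraries, and for each alone against the 3 vehicle libraries where the 2 differed.

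**Figure D1:**
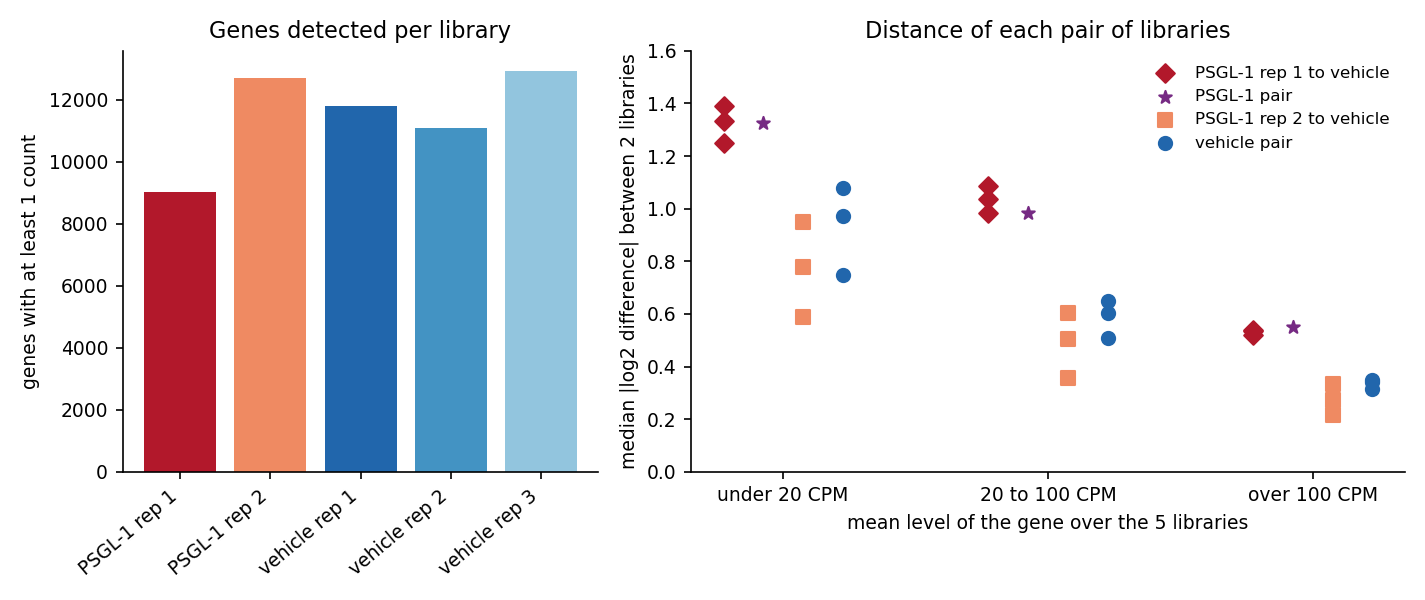
Genes detected in each of the 5 libraries (left, bars, number of genes with at least 1 count) and distance of each pair of libraries (right, median absolute log2 difference over genes, by mean level of the gene in CPM). PSGL-1 replicate 1 detected 9035 genes and lay farther from the vehicle libraries than they lay from each other at every level, while the distances of PSGL-1 replicate 2 lay among or below the vehicle pairs.

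Over all 7814 genes, the median absolute log2 difference between PSGL-1 replicate 2 and a vehicle library was 0.31 to 0.50. Between vehicle libraries it was 0.44 to 0.54. PSGL-1 replicate 2 was thus as near to the vehicle libraries as these were to each other. PSGL-1 replicate 1 differed from the vehicle libraries by 0.81 to 0.85 and from the other treated library by 0.82. Above 100 CPM the order was the same: 0.52 to 0.54 for PSGL-1 replicate 1 against vehicle, 0.22 to 0.34 for PSGL-1 replicate 2 against vehicle and 0.32 to 0.35 among vehicle libraries.

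No gene passed the test for a difference between PSGL-1 and vehicle in SelpWT cells. With edgeR's quasi-likelihood test and Benjamini-Hochberg adjustment over 7814 genes, 0 genes (0%) had an adjusted p under 0.05, and the smallest adjusted p was 0.510. An unadjusted p under 0.05 was reached by 607 genes (7.77%), of which 378 lay higher with PSGL-1 (4.84%) and 229 lower (2.93%). limma with library weights called 0 genes (204 at an unadjusted p under 0.05), and DESeq2 called 5 (0.064%): Itgb4, Zswim4, Zfp408 and Usp18 higher and Lrba lower. The libraries of the 2 groups did not overlap for 1280 genes (16.4%), 631 of them higher with PSGL-1 (8.08%) and 649 lower (8.31%). The median log2 fold change over all genes was -0.01.

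The number of calls depended on which treated library was read. With PSGL-1 replicate 2 alone against vehicle, edgeR called 0 genes, with 108 at an unadjusted p under 0.05. With PSGL-1 replicate 1 alone it called 1359 genes (17.4%), 360 higher and 999 lower; in that fit a lone library is assumed to vary like the other groups. Of these 1359 genes, PSGL-1 replicate 2 lay inside the range of the vehicle libraries for 784 (57.7%), beyond it on the same side for 310 and beyond it on the other side for 265. Over all 7814 genes PSGL-1 replicate 2 lay inside the vehicle range for 4721 (60.4%), and PSGL-1 replicate 1 for 2279 (29.2%). The genes that stood out in the first treated library were thus inside the vehicle range in the second about as often as genes at large.

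**Figure D2:**
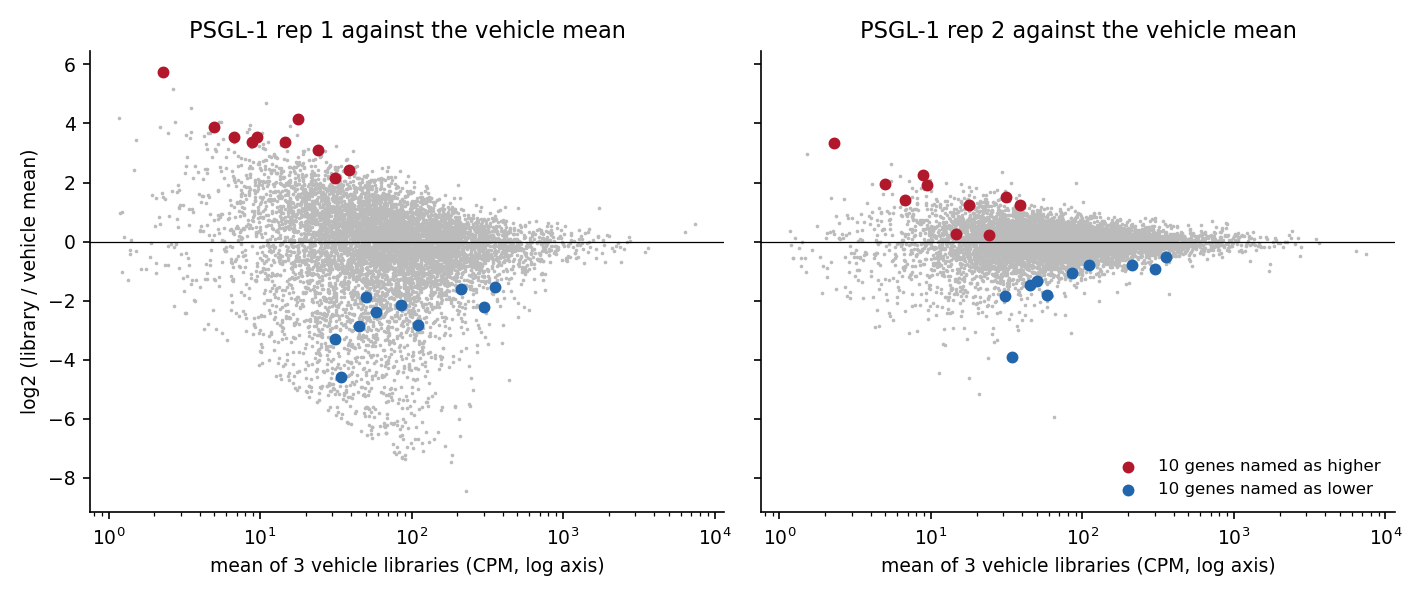
Log2 ratio of each PSGL-1 library to the mean of the 3 vehicle libraries (vertical axis) against that mean (CPM, log axis), 1 grey point per gene for 7814 genes, with the 10 genes named as higher (red) and the 10 named as lower (blue). The spread is wider in PSGL-1 replicate 1 than in PSGL-1 replicate 2, and the named genes lie nearer to 0 in the second panel.

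The receptor was read first. Selp (chromosome 1, 164115264 to 164150026, mm10) stood at 137 and 183 CPM in the PSGL-1 libraries and at 59.8, 26.6 and 141 CPM in the vehicle libraries. One vehicle library thus reached the treated range, and the vehicle values alone spanned a wide range. The log2 fold change was 1.08 (SE 1.26, edgeR adjusted p = 0.829). Fresh SelpWT cells gave 16.8, 66.2 and 118 CPM. In the 8 SelpKO libraries Selp lay between 0 and 12.5 CPM, below every SelpWT library, which matches their genotype label.

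Selplg, which encodes the ligand itself (chromosome 5, 113817798 to 113832528), was at 388 and 212 CPM with PSGL-1 and at 396, 370 and 295 CPM with vehicle. The first treated library lay inside the vehicle range and the second below it. The log2 fold change was -0.24 (SE 0.32, edgeR adjusted p = 0.853), and its sign turned with the library: -0.75 with PSGL-1 replicate 2 alone and 0.13 with PSGL-1 replicate 1 alone. The cells therefore held transcripts of both partners in every SelpWT library.

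Of the 18 genes listed for the P-selectin and PSGL-1 axis, 10 were tested, 4 above and 6 below 0, with a median log2 fold change of -0.14. Sele was at 0 in all 16 libraries, and Vcam1 in all cultured ones. St3gal4, a sialyltransferase that helps to make selectin ligands, had 11.5 and 51.2 CPM with PSGL-1 and 54.1, 68.4 and 74.1 CPM with vehicle, without overlap. Its log2 fold change was -1.06 (SE 0.57, edgeR adjusted p = 0.657), and -0.36 with PSGL-1 replicate 2 alone. Tpst2, a tyrosine sulfotransferase of the kind that modifies PSGL-1, was the other gene without overlap, at 133 and 108 CPM against 168, 158 and 144 CPM (log2 fold change -0.38, SE 0.28, edgeR adjusted p = 0.736). These 2 of 10 genes made up 20%, against 16.4% of all genes without overlap in either direction and 8.31% without overlap and lower. Cd44, an adhesion receptor that can carry selectin-binding sugars, was at 201 and 116 CPM with PSGL-1 and 92.2, 114 and 123 CPM with vehicle, so that only the first treated library lay above. The counterligand gene Icam1 overlapped, at 118 and 70.1 CPM against 140, 101 and 107 CPM. Tpst2 and Icam1 were chosen after their values were seen.

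**Figure D3:**
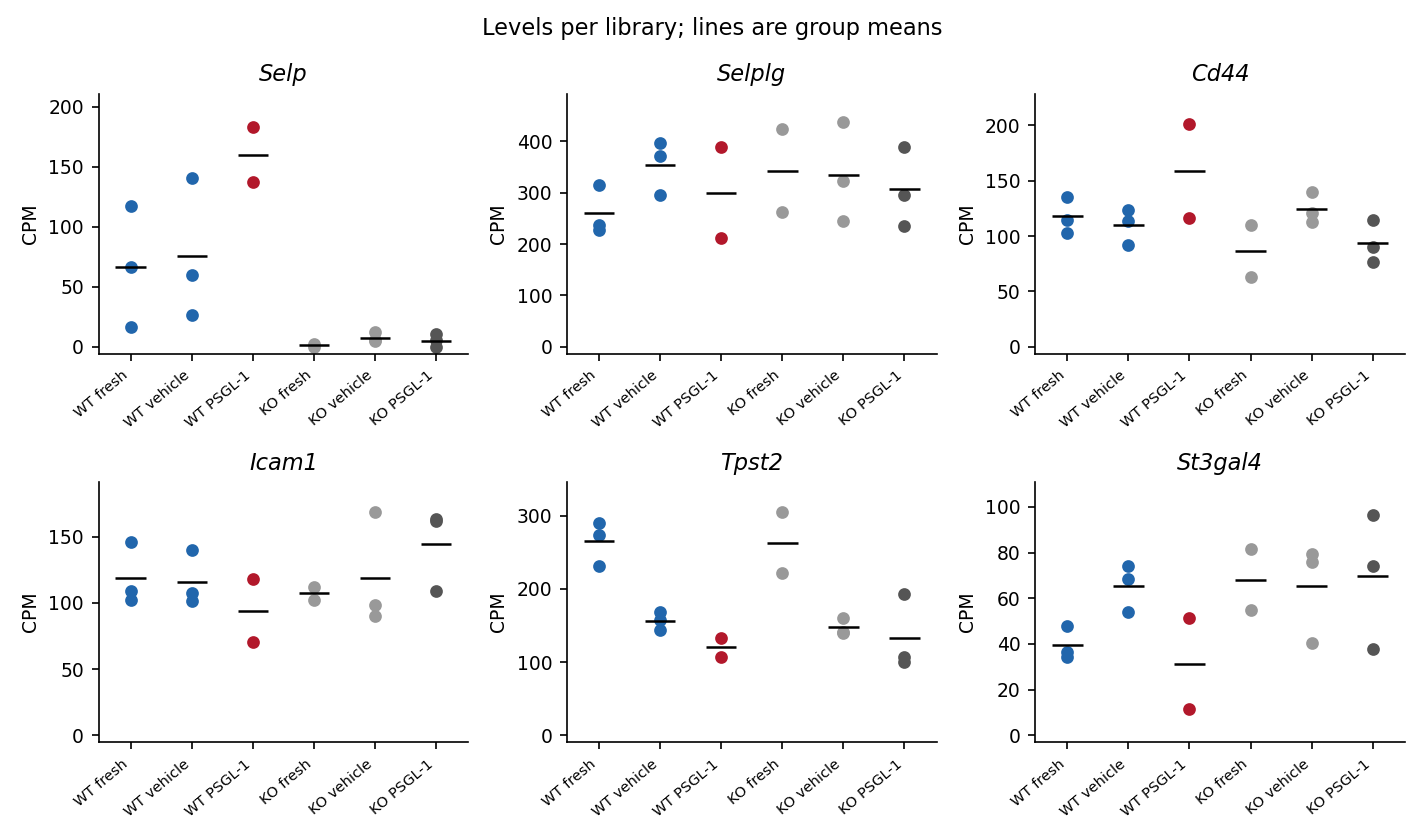
Level in CPM (vertical axes include 0) of 6 genes of the P-selectin and PSGL-1 axis in all 16 libraries, 1 point per library, with bars at the group means; WT is SelpWT and KO is SelpKO. Selp is low in every KO library. Of its 2 PSGL-1 points (137 and 183 CPM), the first lies inside the vehicle range of 26.6 to 141 CPM and the second above it.

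Since no gene passed edgeR's test, the genes named next are the 10 in each direction with the smallest unadjusted p among those with a mean of at least 20 CPM and no overlap. Among the 10 higher genes, log2 fold changes ran from 1.87 to 5.0 and edgeR adjusted p from 0.510 to 0.588. Zfp408, a zinc finger gene (chromosome 2, 91642756 to 91650051), had 91.9 and 42.6 CPM with PSGL-1 and 8.24, 5.69 and 12.6 CPM with vehicle. Both treated libraries lay well above the vehicle range, and the log2 fold change was 2.93 (SE 0.59). From PSGL-1 replicate 2 alone it was 2.26.

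Itgb4, the integrin beta chain that pairs with the alpha 6 chain to bind laminin (chromosome 11, 115974725 to 116008412), stood at 123 and 23.3 CPM against 1.32, 1.01 and 4.49 CPM. Its log2 fold change was 5.0 (SE 1.03), or 3.35 from PSGL-1 replicate 2 alone. Itga6, its partner, was at 417 and 521 CPM with PSGL-1 and 368, 272 and 257 CPM with vehicle. Both treated libraries again lay above the vehicle range, with a log2 fold change of 0.65 (SE 0.34, edgeR adjusted p = 0.657). Usp18, which removes the ubiquitin-like modifier ISG15 and restrains interferon receptor signalling, was at 73.3 and 19.2 CPM against 2.65, 2.21 and 10.0 CPM (log2 fold change 3.22, SE 0.76).

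A pair of genes work in innate immune signalling. Traf6, a ubiquitin ligase downstream of Toll-like and interleukin-1 receptors, had 138 and 89.4 CPM with PSGL-1 and 30.7, 46.1 and 16.8 CPM with vehicle. It had the nearest agreement of the 2 treated libraries among the 10, with log2 fold changes of 2.15 and 1.51 from each alone. Azi2, an adaptor of the kinase TBK1, was at 205 and 91.5 CPM against 44.6, 20.8 and 50.6 CPM. Per1, a repressor of the circadian clock, had 78.0 and 18 CPM against 9.38, 5.57 and 5.30 CPM, and Trim24, a co-regulator of nuclear receptors, had 110 and 36.1 CPM against 5.23, 5.76 and 17.5 CPM. For the next pair the second treated library lay at the upper edge of the vehicle range. Trpc6, a cation channel, was at 207 and 27.8 CPM against 21.7, 27.2 and 23.3 CPM, and Dmac2l, a factor of the mitochondrial ATP synthase, was at 153 and 17.8 CPM against 17.4, 10.2 and 16.4 CPM. The last of the 10, Zswim4, stood at 316 and 42.4 CPM against 12.2, 16.7 and 24.6 CPM.

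In the 10 lower genes log2 fold changes ran from -4.20 to -0.94, and each had an edgeR adjusted p of 0.588. Lrba, which acts in vesicle traffic (chromosome 3, 86223456 to 86782694), had 1.42 and 2.30 CPM with PSGL-1 and 30.5, 57.6 and 14.9 CPM with vehicle. Both treated libraries were far below all vehicle libraries, and the log2 fold change was -4.20 (SE 1.11). Some are signalling genes. Ankrd54, an ankyrin repeat protein that binds the Src family kinase Lyn, was at 70.3 and 121 CPM against 197, 263 and 174 CPM. Map2k3, a kinase that activates p38, was at 123 and 245 CPM against 426, 360 and 277 CPM. Limk2, a kinase that inactivates the actin-severing protein cofilin, was at 13.8 and 19.8 CPM against 47.4, 67.9 and 35.8 CPM. In Limk2 the treated libraries lay close together, with log2 fold changes of -1.87 and -1.35 from each alone.

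The plasma membrane calcium pump gene Atp2b4 was at 19.1 and 41.1 CPM with PSGL-1 and at 80.3, 109 and 66.4 CPM with vehicle. Idua, which encodes a lysosomal enzyme that degrades glycosaminoglycans, was at 3.16 and 8.57 CPM against 35.7, 28.4 and 29.0 CPM. Ercc6, a DNA repair factor at stalled transcription, was at 11.1 and 16.8 CPM against 94.5, 27.5 and 52.9 CPM. In all 3 genes both treated libraries lay below the vehicle range. Brd7, a subunit of a chromatin remodelling complex, had 15.7 and 63.7 CPM against 108, 135 and 88.0 CPM. The lipid transporter gene Abca2 had 64.6 and 159 CPM against 475, 254 and 177 CPM, and Ccdc84 had 6.26 and 16.2 CPM against 43.7, 63.3 and 28.0 CPM.

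In all 10 higher and all 10 lower genes PSGL-1 replicate 1 lay farther from the vehicle mean than PSGL-1 replicate 2. With PSGL-1 replicate 1 alone, edgeR called all 10 higher genes and 7 of the 10 lower genes. With PSGL-1 replicate 2 alone it called none of the 20, and their log2 fold changes ran from 0.20 to 3.35 and from -3.91 to -0.54. The genes were picked for non-overlapping groups, so that the sign of both treated libraries is fixed by the choice.

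**Figure D4:**
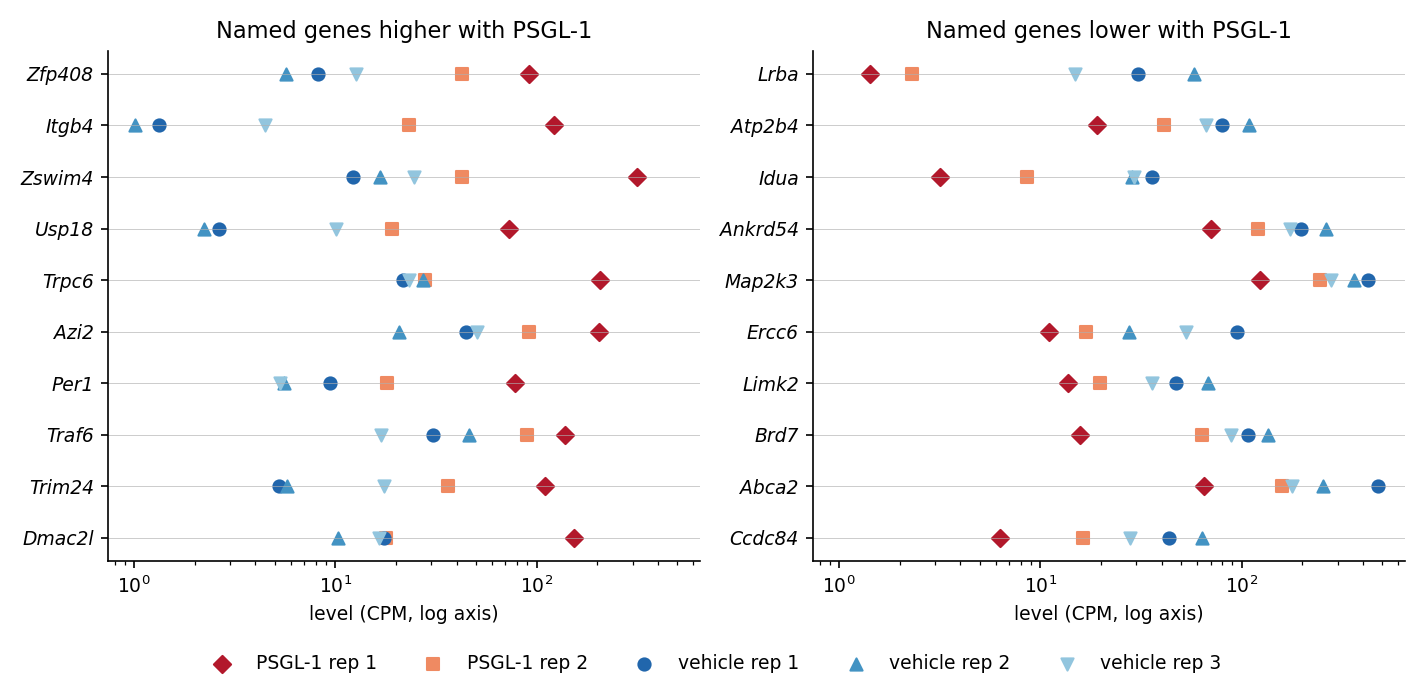
Level in each of the 5 libraries (CPM, log axis) of the 10 genes named as higher with PSGL-1 (left) and the 10 named as lower (right). In every row PSGL-1 replicate 1 is the outermost point, as for Itgb4 at 123 CPM, and PSGL-1 replicate 2 lies between it and the vehicle libraries or at their edge, as for Trpc6 at 27.8 CPM.

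The lists described next group genes by function, and each is given by the number of tested members above and below 0 and by its median log2 fold change, beside -0.01 over all genes. In edgeR's fit of both treated libraries none had a member past the threshold; DESeq2 called Usp18 among the interferon-stimulated genes (adjusted p = 0.0305). The list of PSGL-1 signalling and Src family kinases had 25 tested members, 11 above and 14 below 0, with a median of -0.31, or -0.11 with PSGL-1 replicate 2 alone. Lyn, a Src family kinase, was at 9.31 and 49.8 CPM with PSGL-1 and at 60.4, 105 and 85.4 CPM with vehicle (log2 fold change -1.5, SE 0.65, edgeR adjusted p = 0.628). Mapk3, which encodes the kinase ERK1, was at 45.5 and 59.9 CPM against 99.5, 61.5 and 95.6 CPM. Both genes lay below the vehicle range in both treated libraries, for Mapk3 by little.

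The NF-kB and inflammatory list had 9 of 15 members above 0 with a median of 0.07, which was 0.12 from PSGL-1 replicate 1 alone and -0.09 from PSGL-1 replicate 2 alone. Tnfaip2, a gene that responds to tumor necrosis factor, was at 350 and 277 CPM with PSGL-1 and 182, 159 and 257 CPM with vehicle (log2 fold change 0.65, SE 0.26, edgeR adjusted p = 0.620). Immediate early genes, which respond within minutes to many stimuli, had 7 of 13 above 0. They split by library: 1 of 13 lay above 0 with PSGL-1 replicate 2 alone (median -0.34) and 8 of 13 with PSGL-1 replicate 1 alone (median 0.38). Interferon-stimulated genes had 7 of 16 above 0 with a median of -0.03 (0.09 and 0.03 from PSGL-1 replicates 1 and 2 alone), and Usp18 and Parp14 in that list stood on opposite sides. Parp14, a mono-ADP-ribosyltransferase, was at 3.05 and 4.70 CPM with PSGL-1 against 15.6, 74.1 and 22.9 CPM.

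MHC class I antigen presentation genes had 11 of 17 above 0 with a median of 0.12 (0.20 and 0.02 from PSGL-1 replicates 1 and 2 alone). The nonclassical class I gene H2-M3 had 112 and 47.4 CPM with PSGL-1 and 24.1, 3.16 and 25.6 CPM with vehicle (log2 fold change 2.18, SE 0.67, edgeR adjusted p = 0.588). Tapbpl, a peptide editor of class I molecules, overlapped, with 132 and 35.7 CPM against 24.1, 25.6 and 55.3 CPM. In the list of cytokine receptors and JAK-STAT feedback 16 of 31 lay above 0 with a median of 0.11, but the medians from PSGL-1 replicates 1 and 2 alone were -0.19 and -0.14. Csf3r, the receptor of granulocyte colony-stimulating factor, was at 49.2 and 134 CPM with PSGL-1 and 229, 230 and 170 CPM with vehicle, below in both treated libraries. Ifngr2, a chain of the interferon gamma receptor, was at 99.8 and 31.0 CPM against 16.5, 20.4 and 18.5 CPM, above in both.

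TGF-beta pathway genes, which restrain HSC division, had 4 of 15 above 0 with a median of -0.24, or -0.10 with PSGL-1 replicate 2 alone. Smad5, a transducer of BMP signals, was at 3.98 and 34.8 CPM with PSGL-1 and 66.5, 120 and 38.4 CPM with vehicle (log2 fold change -1.95, SE 0.71, edgeR adjusted p = 0.588). The co-receptor gene Eng was at 47.0 and 192 CPM against 259, 230 and 183 CPM, so that PSGL-1 replicate 2 lay inside the vehicle range.

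Cell cycle lists differed by treated library. Of 47 tested DNA replication and S phase genes, 34 lay below 0 with a median of -0.20. With PSGL-1 replicate 1 alone the median was -0.44, and with PSGL-1 replicate 2 alone it was -0.00 with 23 of 47 above 0. Fen1, the flap endonuclease of Okazaki fragment processing, was at 194 and 437 CPM with PSGL-1 and 518, 565 and 499 CPM with vehicle (log2 fold change -0.74, SE 0.26, edgeR adjusted p = 0.588). Mitosis genes had a median of -0.08 over 45 tested, which was -0.63 from PSGL-1 replicate 1 alone and 0.24 from PSGL-1 replicate 2 alone. Relative to the mean log2 level of the vehicle libraries, their median was 0.30 in PSGL-1 replicate 2 and 0.23 in vehicle replicate 3. The mitotic kinesin genes Kif11 and Cenpe lay above the vehicle range in both treated libraries. They were the only 2 members of the list without overlap and higher, and 2 others did not overlap and were lower. In all 8.89% of the list did not overlap, against 16.4% of all genes. Kif11 was at 172 and 178 CPM against 121, 71.9 and 99.8 CPM, and Cenpe at 236 and 171 CPM against 143, 57.6 and 134 CPM. The proliferation marker Mki67, chosen after its values were seen, was at 665 and 467 CPM with PSGL-1 and 546, 561 and 460 CPM with vehicle, with overlap.

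The list of genes with higher levels in HSCs of old mice had 16 of 23 tested members above 0 with a median of 0.39, and medians of 0.36 and 0.13 from PSGL-1 replicates 1 and 2 alone. In this list 5 members did not overlap between groups (21.7%), all higher with PSGL-1: Clca3a1, Ghr, Mt1, Vwf and Dsg2. The last 3 of them were chosen after their values were seen. Over all genes 16.4% did not overlap in either direction, and 8.08% did not overlap and were higher. Clca3a1 was at 157 and 134 CPM with PSGL-1 and 10.2, 27.0 and 63.9 CPM with vehicle. Its log2 fold change was 2.11 (SE 0.78, edgeR adjusted p = 0.588), 2.22 and 1.98 from each treated library alone, and the vehicle libraries spread over a wide range. Ghr, the growth hormone receptor, was at 92.8 and 30.2 CPM against 21.0, 6.90 and 10.4 CPM. Vwf, which encodes von Willebrand factor and marks platelet-biased HSCs, was at 75.1 and 108 CPM against 56.8, 46.2 and 72.7 CPM (log2 fold change 0.64, SE 0.39, edgeR adjusted p = 0.670). On the median of this list vehicle replicate 3 lay close to PSGL-1 replicate 2, at 0.26 and 0.29 above the mean log2 level of the vehicle libraries.

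HSC identity genes had 17 of 38 above 0 with a median of -0.06, and 11 of 38 with a median of -0.27 from PSGL-1 replicate 2 alone (-0.02 from PSGL-1 replicate 1 alone). Mecom, a transcription factor of long-term HSCs, was at 301 CPM in PSGL-1 replicate 1 and 16.6 CPM in PSGL-1 replicate 2, on either side of the vehicle values of 37.2, 32.6 and 26 CPM. Its log2 fold change of 2.31 (SE 0.71, edgeR adjusted p = 0.588) became -0.95 without PSGL-1 replicate 1. Angpt1, the ligand of the receptor Tie2, was at 237 and 130 CPM with PSGL-1 and 116, 78.1 and 106 CPM with vehicle.

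Megakaryocyte and platelet genes gave the widest split between the treated libraries. Of 16 tested members, 15 lay above 0 with PSGL-1 replicate 2 alone (median 0.59) and 6 with PSGL-1 replicate 1 alone (median -0.43). Pf4, a platelet chemokine, was at 33.9 and 363 CPM with PSGL-1 and 26.2, 105 and 140 CPM with vehicle. Itga2b, the alpha chain of the platelet fibrinogen receptor, was at 875 and 1155 CPM against 499, 679 and 958 CPM. Both were chosen after their values were seen, and in both at least 1 treated library lay inside the vehicle range.

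Adhesion and cytoskeleton genes lay near 0 as groups. Integrins and homing receptors had a median of 0.02 over 17 genes (0.01 and 0.06 from PSGL-1 replicates 1 and 2 alone) and actin cytoskeleton genes 0.06 over 39 (-0.00 and -0.07). Myh9, the heavy chain of nonmuscle myosin, was at 950 and 532 CPM with PSGL-1 and 514, 281 and 251 CPM with vehicle (log2 fold change 1.09, SE 0.40, edgeR adjusted p = 0.588). Lysosome and autophagy genes had 21 of 33 above 0 with a median of 0.18, which was 0.42 and 0.02 from PSGL-1 replicates 1 and 2 alone. Atg7, the enzyme that starts the conjugation of autophagy proteins, had 213 and 106 CPM against 60.0, 77.6 and 47.1 CPM (log2 fold change 1.37, SE 0.37, edgeR adjusted p = 0.588). Atp6v1h, a subunit of the lysosomal proton pump, had 225 and 124 CPM against 79.4, 93.4 and 96.1 CPM. Both lay above the vehicle range in both treated libraries.

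Lists of protein quality control again differed by treated library, but PSGL-1 replicate 2 lay close to a vehicle library. Relative to the mean log2 level of the vehicle libraries, endoplasmic reticulum chaperones were at 0.31 in PSGL-1 replicate 2 and 0.28 in vehicle replicate 3. Heat shock chaperones were at 0.21 and 0.16. The median of the endoplasmic reticulum chaperones was -0.39 from PSGL-1 replicate 1 alone and 0.28 from PSGL-1 replicate 2 alone, and of heat shock chaperones -0.38 and 0.15. Dnajb1, a co-chaperone, was at 20.2 and 164 CPM with PSGL-1 and 198, 125 and 218 CPM with vehicle. The chaperonin subunit gene Cct3 was at 121 and 578 CPM against 532, 596 and 665 CPM. In both, PSGL-1 replicate 2 lay inside the vehicle range and PSGL-1 replicate 1 far below it. Keap1, the sensor that holds the oxidative stress factor NRF2 in check, was at 357 and 190 CPM against 133, 120 and 175 CPM, while the NRF2 and glutathione list had a median of -0.08 over 32 genes.

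**Figure D5:**
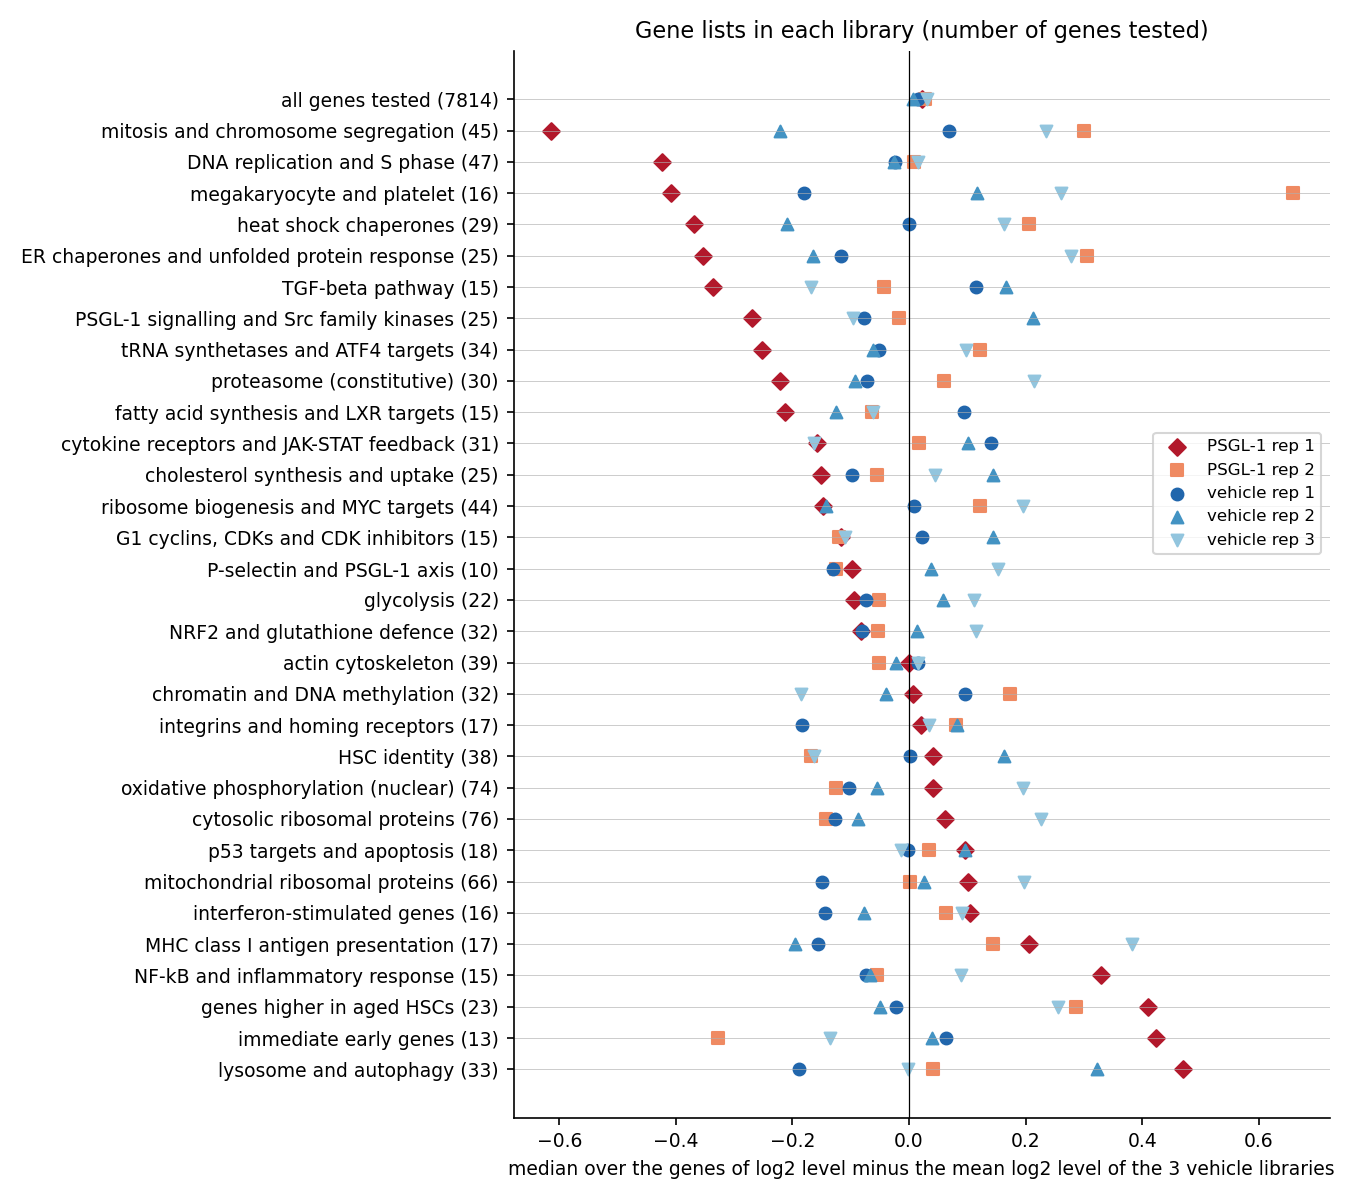
Median, over the tested genes of each list, of the log2 level in a library minus the mean log2 level of the 3 vehicle libraries (horizontal axis), 1 point per library, with the number of genes in parentheses. For mitosis, megakaryocyte and endoplasmic reticulum chaperone genes the 2 PSGL-1 points lie on opposite sides of the vehicle libraries or of 0, and for genes higher in aged HSCs both lie above 0 (0.41 and 0.29) beside a vehicle library at 0.26. For mitosis and endoplasmic reticulum chaperone genes PSGL-1 replicate 2 (0.30 and 0.31) lies beside vehicle replicate 3 (0.23 and 0.28).

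Precision was highest for large groups of abundant genes. The 95% interval of the log2 fold change lay wholly within 2-fold in either direction for 1816 genes (23.2%). It did so for 1465 of 2619 genes over 100 CPM (55.9%), 350 of 4336 at 20 to 100 CPM (8.07%) and 1 of 859 under 20 CPM. Of cytosolic ribosomal protein genes, 71 of 76 were bounded in this way, with a list median of -0.03. From PSGL-1 replicate 1 alone 44 of these 76 lay above 0 (median 0.04), and from PSGL-1 replicate 2 alone 9 of 76 (median -0.16). Also bounded were 52 of 74 oxidative phosphorylation genes (median -0.06), 26 of 30 constitutive proteasome genes (median -0.05, and -0.23 and 0.04 from PSGL-1 replicates 1 and 2 alone) and 27 of 39 actin cytoskeleton genes. In contrast the interval was this narrow for 2 of 23 genes of the aged HSC list, 3 of 16 megakaryocyte genes and 2 of 15 TGF-beta genes. For most genes below 100 CPM the interval thus reached beyond 2-fold. The intervals use a spread shared over all 16 libraries. The 2 treated libraries differed from each other by a median of 0.82 in log2, and vehicle pairs by 0.44 to 0.54, so the intervals may be too narrow. An edgeR fit of the 5 libraries alone had 221 genes at an unadjusted p under 0.05, against 607.

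For metabolic groups the median was -0.04 over 25 genes of cholesterol synthesis and uptake (-0.18 and -0.07 from PSGL-1 replicates 1 and 2 alone) and -0.06 over 22 glycolysis genes (-0.14 and -0.07). Srebf2, the transcription factor of cholesterol synthesis genes, was at 338 and 603 CPM with PSGL-1 and 840, 838 and 508 CPM with vehicle, with overlap. Gpi1, a glycolytic isomerase, was at 309 and 322 CPM against 630, 603 and 305 CPM, where vehicle replicate 3 lay below both treated libraries. Of oxidative phosphorylation genes, 11 of 74 did not overlap (14.9%), all lower with PSGL-1. Over all genes 16.4% did not overlap in either direction, and 8.31% did not overlap and were lower. The list median was -0.16 from PSGL-1 replicate 2 alone and 0.03 from PSGL-1 replicate 1 alone. Ndufs3, a subunit of complex I, was at 48.1 and 90.4 CPM against 121, 123 and 121 CPM (log2 fold change -0.81, SE 0.31, edgeR adjusted p = 0.601). Myc, whose product drives growth and ribosome production, was at 332 and 601 CPM with PSGL-1 and 915, 635 and 596 CPM with vehicle.

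The remaining lists stood as follows. The median was -0.01 over 44 genes of ribosome biogenesis and MYC targets, but 16 of 44 lay above 0 from PSGL-1 replicate 1 alone (median -0.16) and 32 of 44 from PSGL-1 replicate 2 alone (median 0.09). It was 0.05 over 34 tRNA synthetase and ATF4 target genes, and -0.28 and 0.03 from each treated library alone. Mitochondrial ribosomal protein genes had a median of 0.03 over 66, and 0.07 and -0.03 from each alone. The arginine tRNA synthetase gene Rars was at 63.6 and 102 CPM with PSGL-1 and 125, 129 and 140 CPM with vehicle, below in both treated libraries (log2 fold change -0.67, SE 0.30, edgeR adjusted p = 0.628). Polr1b, a subunit of the polymerase that makes ribosomal RNA, lay above in both, at 132 and 181 CPM against 83.5, 63.3 and 120 CPM. G1 cyclins and CDK genes had 4 of 15 above 0 with a median of -0.10 (-0.26 and -0.13 from each alone), and p53 targets 7 of 18 with a median of -0.04 (0.04 and 0.01). Ccng1, a p53 target, was at 152 and 111 CPM with PSGL-1 and 63.7, 45.9 and 93.0 CPM with vehicle, whereas Mdm2, which encodes the ubiquitin ligase that degrades p53, was at 19.7 and 51.9 CPM against 46.3, 90 and 56.3 CPM. The first lay above vehicle in both treated libraries and the second overlapped. Fatty acid synthesis and LXR target genes had a median of 0.02 over 15 genes (-0.22 and -0.08 from each alone), and chromatin and DNA methylation genes 0.00 over 32 (-0.04 and 0.04).

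The same treatment in SelpKO cells, which lack the receptor, was read on the same 7814 genes. It gave 0 genes past the threshold with edgeR and 72 at an unadjusted p under 0.05 (0.921%). Of the 20 named genes, 0 had an unadjusted p under 0.05 in SelpKO cells, where their log2 fold changes ran from -0.38 to 1.24 for the 10 higher genes and from -0.27 to 1.26 for the 10 lower. Zfp408 was at -0.01, Usp18 at 0.02 and Azi2 at 0.22 in SelpKO cells. The test of the difference between the responses of the 2 genotypes called 0 genes, with 319 at an unadjusted p under 0.05 (4.08%) and a smallest adjusted p of 0.981 (edgeR). For Lrba the log2 fold changes were -4.20 in SelpWT and 1.26 in SelpKO cells, and for Traf6 1.87 and -0.38. Of the 20 genes, 18 had an unadjusted p under 0.05 for that difference, but they had been chosen on the SelpWT side of it. Without PSGL-1 replicate 2 the test of the difference called 846 genes, and without PSGL-1 replicate 1 it called 0.

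Markers placed the cells and their possible admixture. Each of the 10 HSC markers had counts in the vehicle group or the PSGL-1 group, with 1 of them at 0 in PSGL-1 replicate 1 and at most 1 at 0 in a vehicle library. Their summed level was 1601 and 1028 CPM with PSGL-1 and 1390, 1332 and 1150 CPM with vehicle. Hemoglobin genes, Cd3d and Cd3e were at 0 in all 5 libraries, as were the neutrophil genes S100a8 and S100a9. The B cell markers summed to 21.1 and 21.0 CPM with PSGL-1 and to 33.4 to 62.2 CPM with vehicle, with 8 of 12 at 0 throughout, and T and NK cell markers to 30.0 and 49.4 CPM against 47.9 to 89.8 CPM, with 11 of 14 at 0. In every library Cd79b made up most of the B cell sum. In PSGL-1 replicate 1, 13 of 14 T and NK markers were at 0, and Lck made up the sum. Cd79b and Lck were chosen after their values were seen. Neutrophil and monocyte markers summed to 209 and 316 CPM against 375 to 601 CPM, but members differed. Of 3 tested members, 1 lay below the vehicle range in both treated libraries (Csf3r) and 1 above it (Lyz2). Lyz2 had 2199 and 2183 counts with PSGL-1 and 1349, 1694 and 1475 with vehicle. These counts are not scaled, and the treated libraries were the largest of the 5. In CPM, Lyz2 in PSGL-1 replicate 2 lay above the vehicle range by little. Mpo had 2160 counts in vehicle replicate 3 and 0 in the other vehicle libraries. Lyz2 and Mpo were chosen after their values were seen. Erythroid markers were at 872 and 1058 CPM against 1149 to 1234 CPM, with 6 of 18 at 0 throughout. Car2 made up most of that sum, with 14173 and 15488 counts with PSGL-1 and 15674, 15733 and 11331 with vehicle. These counts are not scaled, and in CPM Car2 lay below the vehicle range in both treated libraries. Of 3 tested erythroid members, 2 did not overlap and were lower with PSGL-1, against 8.31% of all genes. Macrophage and dendritic cell markers were at 93.9 and 167 CPM against 107 to 210 CPM, with 9 of 19 at 0. Mast cell and basophil markers were at 939 and 967 CPM against 923 to 1137 CPM, with 7 of 12 at 0. Kit, in the mast cell list, is also 1 of the 10 HSC markers. Car2 was chosen after its values were seen. Endothelial and stromal markers were at 604 CPM in PSGL-1 replicate 1, 320 CPM in PSGL-1 replicate 2 and 255 to 355 CPM with vehicle, with 7 of 16 at 0 throughout. Megakaryocyte markers summed to 2297 and 4693 CPM against 2854 to 3664 CPM, with Gp6, Tubb1 and Thbs1 at 0. Their part in the differences above was not tested, and in bulk RNA fewer cells of a type and less RNA per cell cannot be told apart.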

How the data were processed

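RNA came from a column kit for small samples (RNeasy Plus Micro) and cDNA libraries from the SMART Ultra-Low Input kit, per the labels' protocols. The deposited values are raw read counts per gene symbol. The tools STAR 2.7.5c, featureCounts, MultiQC 1.10 and DESeq2 and the build mm10 are listed per the submitters' processing notes. How multi-mapping reads were handled, the strand setting and the annotation were not given in the sources used here, so counts of near-identical or overlapping genes are uncertain. No molecular identifiers are described, so the floor of 3 counts covers counting error only.

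Members and gene lists were chosen with earlier results of these data known. Genes needed at least 10 counts in each of the 5 libraries, a rule that removes genes lost from 1 library. One edgeR 4.0.16 quasi-likelihood model (robust, TMM, R 4.3.3) was fitted to all 16 libraries with 1 mean per group, and p-values were adjusted by Benjamini-Hochberg over 7814 genes. The common biological coefficient of variation was 0.467. SE is the fold change over the root of its F statistic, and intervals are at 95%. Named genes were Selp and Selplg, up to 10 genes per direction (called genes by fold change, otherwise those with the smallest p, a mean of at least 20 CPM and no overlap), and up to 2 members with the smallest p from each of 30 pathway lists; any other gene is marked as chosen after its values were seen. There were 8 further lists of cell type markers and 10 HSC markers. Coordinates are RefSeq GRCm38.p6, which matched 25041 symbols. Alternatives were limma 3.58.1, DESeq2 1.42.0, RLE scaling, other filters, other sets of libraries, each library left out and the replicate numbers as a block. The fitting was tested on simulated counts. No 2 libraries of a group agreed within sampling noise (smallest chi-square per degree of freedom 120). Some genes are counted here but not reported singly.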

Additional observations from a re-analysis of the deposited data

How the results depend on the processing

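The count of genes past the threshold was 0 in 14 of 16 other settings. DESeq2 called 5 genes, and the fits that left out 1 library called from 0 to 1359 genes for PSGL-1 against vehicle and from 0 to 846 for the difference between genotypes, the higher values without PSGL-1 replicate 2. With filterByExpr 14124 genes were tested and the median log2 fold change was -0.11, with no filter -0.17 over 14249 genes. Of 81 named genes, 78 kept their sign in all settings run. Most were picked for small p-values or non-overlapping groups, and a gene without overlap can hardly change sign when 1 library is left out. The kept signs were thus largely fixed by the choice. With 1 library left out Selplg ran from -0.75 to 0.13, Mecom from -0.95 to 3.24 and Abcg1, a lipid exporter gene, from -1.29 to 3.15. The positive end was without PSGL-1 replicate 2 for Selplg, and the negative end was without PSGL-1 replicate 1 for the others (-0.94 for Mecom and -1.27 for Abcg1 with the count minimum over the 4 libraries left). List medians moved by more than the SD of the vehicle medians in 56 of 195 fits that left out 1 library and in 48 of 429 other fits; the cause was not tested. Over the 36 pairs of same-numbered libraries, deviations from the group mean had correlations from -0.11 to 0.14. In a group of 2 libraries these deviations mirror each other, so this measure cannot show pairing for the PSGL-1 group. Of all pairs among the 5 libraries, PSGL-1 replicate 2 and vehicle replicate 3 (library numbers 15 and 14) were the nearest, at a median difference of 0.31. Whether they shared a preparation was not tested. With the replicate block edgeR called 0 genes (654 at an unadjusted p under 0.05, smallest adjusted p 0.307), and 0 (492) with blocks by the library numbers of the labels. There were 2 treated libraries, and the median SE of a log2 fold change was 0.32 over 100 CPM, 0.55 at 20 to 100 CPM and 0.89 below.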

Other observations

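The minimum of 10 counts in each library leaves out genes seen in 1 group only. Of the 9770 genes with at least 10 counts in each vehicle library, 36 (0.368%) were at 0 in both PSGL-1 libraries. Ankrd13d had 484, 310 and 172 counts with vehicle, a mean 256-fold above the floor of 3 counts over the PSGL-1 group. That floor covers counting error only and does not bound the difference in expression. Single libraries lost many genes: 16.8% of the 9770 were at 0 in PSGL-1 replicate 1. The same measure for vehicle replicate 2 against the other vehicle libraries gave 6.75%. Hivep3, a zinc finger transcription factor gene, had 606, 62 and 83 counts with vehicle, a mean 194-fold above that floor. In SelpKO cells Hivep3 had 208 to 700 counts in all 3 PSGL-1 libraries. Met, the receptor of hepatocyte growth factor, had 424, 187 and 117 counts with vehicle and 96 to 193 counts in the SelpKO libraries with PSGL-1, whereas Ankrd13d had 290, 167 and 0 there. Plvap, an endothelial membrane protein gene, had 46, 476 and 177 counts with vehicle and 51, 0 and 163 in SelpKO cells with PSGL-1. All were chosen after their values were seen. A fit of 14124 genes that kept them gave each of the 4 genes an adjusted p of 0.774 (edgeR). The genes were picked for this very pattern, so a p-value for the same comparison is no separate support.

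The reverse pattern, 0 counts in each vehicle library and at least 10 in both PSGL-1 libraries, held for 12 genes. Abcc3, an exporter of organic anions, had 2089 and 15 counts with PSGL-1. Its mean was 879-fold above the floor of 3 counts over the vehicle group, which covers counting error only. Most of this mean came from PSGL-1 replicate 1. In SelpKO cells it had 109, 217 and 78 counts with vehicle and 0, 190 and 0 with PSGL-1. Syne4 had 1217 and 74 counts, and Il1r2, the decoy receptor of interleukin-1, had 149 and 12 counts. In 10 of the 12 PSGL-1 replicate 1 had the higher count. These genes too were chosen after their values were seen. The edgeR fit of 14124 genes gave the 3 genes an adjusted p of 0.774, with the same limit for genes picked by their pattern.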
